A study of Mus musculus with 10 samples.

Results

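The transcripts of 34 genes of the G2/M transition and of mitosis were followed in hearts of mice that lack Lmna on both alleles (Lmna KO, n = 5) and in wild-type hearts (WT, n = 5). The genes were taken by name, for their known roles, as regulators of mitotic entry (10 genes), spindle genes (4), genes of the kinetochore and centromere with the checkpoint and the anaphase ubiquitin machinery (12), genes of the condensed chromosome (2) and cytokinesis genes (6). They are 34 of the 14626 named genes in the deposited table. All mice were on a C57BL/6 background and 14 days old, and the design text gives 5 mice per genotype. The labels name no promoter or Cre. Lmna codes for lamins A and C of the nuclear lamina. Values are signal units, that is, counts per effective library size (CPM with a scaling factor per library, by the name of the deposited sheet). Lmna itself had a signal of 38.4, 22.1, 30.3, 28.7 and 48.9 in knockout hearts 1 to 5, against 105, 102, 110.1, 105 and 108 in WT hearts 1 to 5. Every knockout library was far below every WT library, as its label says. Library totals were 15259545 to 22146030 reads, of which the 34 genes held 2180 to 4785. The summed signal of 12 cardiomyocyte markers was 93631 to 167963 in the knockout and 169299 to 189009 in the WT libraries, so heart muscle was abundant in every library. The 5th knockout library stood apart from the rest, so calls and medians of the members are given with and without it.

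A dividing cell makes these transcripts late in its cycle. Cyclins A and B bind the kinase Cdk1, which drives entry into mitosis together with the Polo and Aurora kinases. Motor and crosslinking proteins then build the spindle, kinetochores tie the chromosomes to it, and the spindle checkpoint holds back the anaphase-promoting complex (APC/C) until all are attached. In the mouse heart most cardiomyocytes stop dividing in the first weeks after birth, many of them after a last mitosis without cytokinesis, while endothelial cells and fibroblasts go on dividing for longer.

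Many of these genes share promoter elements. Any link of these elements to the levels in these libraries was not tested. The CHR element (written TTTGAA or TTCGAA) is known to be bound by MuvB complexes, which repress late cell cycle genes in resting cells and, with B-Myb and FoxM1, activate them in dividing cells. The CCAAT box is bound by the factor NF-Y. Promoter windows from RefSeq (GRCm38.p6, the assembly of mm10) run 250 bases before to 50 bases after the start of a gene, 300 bases in all, and 28 of the 34 members had one. Aurkb, Bora, Ccna2, Foxm1, Kif20a and Tpx2 had no entry. With both strands searched, and 1 window per gene, 23 of 28 members (82.1%) held a CHR, 24 (85.7%) a CCAAT box and 21 (75%) both. Among the 9608 tested genes with a window the shares were 13.2%, 38.6% and 5.65%, and among all 27025 genes in the table they were 19.4%, 37.9% and 7.7%. The members without a CHR in the window were Birc5, Ccnb1, Cenpe, Nek2 and Nusap1. A match is only a match of letters. The members were chosen as late cell cycle genes, the class that MuvB complexes are known to control. Below are the 200 bases before the start of the 6 members with the highest signal among those with a CHR there, 5′ to 3′ on the strand of the gene, with CHR and CCAAT letters on either strand in capitals.
Mki67 (chr7:135716380-135716579, minus strand): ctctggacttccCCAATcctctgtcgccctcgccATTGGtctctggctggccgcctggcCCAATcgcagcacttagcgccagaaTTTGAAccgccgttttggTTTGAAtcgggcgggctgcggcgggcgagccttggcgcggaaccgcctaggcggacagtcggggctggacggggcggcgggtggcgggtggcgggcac
Top2a (chr11:99024190-99024389, minus strand): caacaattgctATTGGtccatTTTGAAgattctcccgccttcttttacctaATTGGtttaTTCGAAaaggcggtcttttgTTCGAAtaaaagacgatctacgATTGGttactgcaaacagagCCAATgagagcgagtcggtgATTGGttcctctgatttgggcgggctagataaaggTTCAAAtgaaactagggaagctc
Prc1 (chr7:80294276-80294475, plus strand): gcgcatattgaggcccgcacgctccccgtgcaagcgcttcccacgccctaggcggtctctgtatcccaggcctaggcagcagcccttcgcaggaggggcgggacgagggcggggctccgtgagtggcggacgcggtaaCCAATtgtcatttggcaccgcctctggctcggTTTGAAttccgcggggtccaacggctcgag
Kif11 (chr19:37376182-37376381, plus strand): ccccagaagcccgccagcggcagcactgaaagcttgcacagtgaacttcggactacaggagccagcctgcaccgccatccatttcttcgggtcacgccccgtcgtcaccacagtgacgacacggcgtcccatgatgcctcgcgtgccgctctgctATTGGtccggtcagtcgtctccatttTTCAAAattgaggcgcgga
Bub1b (chr2:118598011-118598210, plus strand): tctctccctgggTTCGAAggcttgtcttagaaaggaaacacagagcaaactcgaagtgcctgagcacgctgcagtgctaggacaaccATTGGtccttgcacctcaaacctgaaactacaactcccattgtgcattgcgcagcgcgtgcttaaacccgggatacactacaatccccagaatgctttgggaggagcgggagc
Cdk1 (chr10:69352913-69353112, minus strand): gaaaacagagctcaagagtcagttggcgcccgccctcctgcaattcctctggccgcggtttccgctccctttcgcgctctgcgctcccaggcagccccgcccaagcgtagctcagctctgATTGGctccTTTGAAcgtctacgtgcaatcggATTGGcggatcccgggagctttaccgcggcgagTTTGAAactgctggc
Cdk1 holds 2 CHR and 2 CCAAT matches in this stretch, and its CHR nearest the start begins 15 bases before it. Kif11 and Prc1 have 1 of each, with the CHR at 19 and 30 bases before the start. Prc1 has 2 starts in the table, and the counts over 28 members used the other one, which lies 5 bases after the start of the same CHR. Top2a has 4 CHR and 5 CCAAT matches, and Mki67 has 2 and 3.

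The mitotic transcripts had lower mean levels in knockout hearts in every role group. The mean signal of 33 of the 34 genes was lower in the knockout than in the WT libraries, where 48.5% of all tested genes were lower. Cenpa, the exception, was high in the 5th knockout library alone. The summed signal of the 34 genes was 148 ± 27.96 in Lmna KO and 242 ± 34.4 in WT (SD, n = 5 each), and the highest knockout library (183) lay below the lowest WT library (189.8). This separation was lost without Cenpa and Cenpf together, and of this pair Cenpf carried it. In the 1st knockout and the 2nd WT heart Cenpf was 38.4 and 62.1, while Cenpa was 20.5 and 17.8. Summed over the other 32 genes, the 1st knockout (124) lay above the 2nd WT heart (110.0). In whole hearts, fewer dividing cells and less RNA per cell cannot be told apart. No member passed the test with all libraries. The test was limma on log2(signal + 0.5), two-sided, with Benjamini-Hochberg adjustment over all 12855 genes that had a mean signal of at least 1, and a threshold of 0.05. It covered 31 members (Plk1, Ttk and Aurkb were below that level), of which 0 passed in either direction, where 0.0856% of all genes passed as lower and 0.117% as higher. Adjusted p-values of the members ran from 0.0943 to 0.756. Without adjustment 22 of 31 were lower at p under 0.05 and 0 higher, against 11.4% and 9.42% of all genes. The quasi-likelihood test of edgeR on recovered reads also called 0 members (all genes, 0.0545% lower and 0.101% higher). At an unadjusted edgeR p under 0.05, 21 members were lower and 0 higher, against 1242 and 1473 of all 12855 genes. DESeq2 called 6 lower and 0 higher (all genes, 2.57% and 3.48%), namely Ccnb2, Hmmr, Cenpe, Top2a, Kif20a and Prc1.

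Without the 5th knockout library 4 members fell, where 2.71% of all genes fell and 2.27% rose. They were Top2a, Mki67, Cenpe and Ccnb2, and 0 members rose. The same 4 were called by edgeR's quasi-likelihood test without that library (all genes, 2.69% lower and 2.44% higher), an alternative added after the data were seen. All 31 log2 changes were negative in both of these fits. Without the 2nd and 5th knockouts together 6 members fell and 0 rose (all genes, 6.42% and 4.24%), and with library weights 12 fell and 0 rose (all genes, 10.1% and 7.63%). The median log2 change over the 31 members was -0.80 with all libraries and -0.58 without the 5th knockout, beside -0.01 over all tested genes in both fits. By role the medians with all libraries were -0.82 for entry, -0.72 for spindle, -0.81 for kinetochore, -0.78 for cytokinesis and -1.43 for the 2 chromosome genes. Without the 5th knockout they were -0.65, -0.55, -0.54, -0.57 and -0.94 in the same order. A fit with no minimum signal covered all 34 members and gave a median of -0.80 with 33 negative changes and 0 calls (all genes, 0.0889% lower and 0.13% higher).

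**Figure D1:**
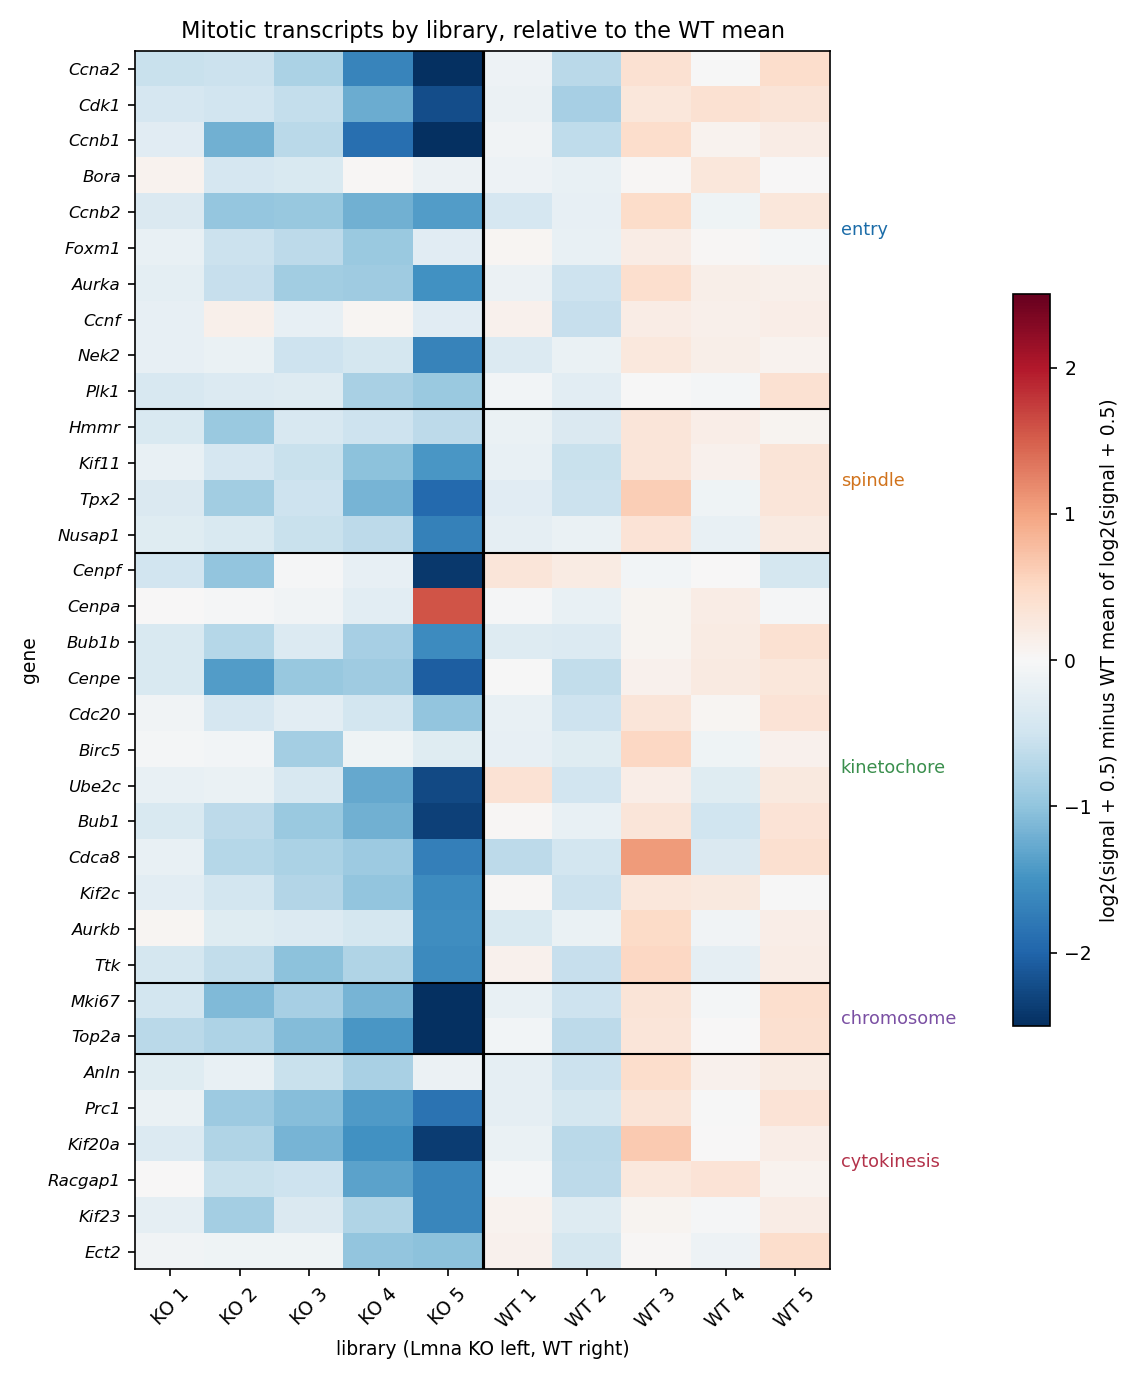
Heat map of all 34 genes (rows, by role and then by mean signal) in the 5 Lmna KO libraries (left) and the 5 WT libraries (right). Colour gives log2(signal + 0.5) of a library minus the mean of the 5 WT libraries, blue for lower and red for higher, and values past the ends of the scale take its end colour. The 4th and 5th knockout columns are the darkest blue, the 1st is close to the WT columns, Cenpa is red in the 5th, and among WT columns the 2nd is blue and the 3rd and 5th are pale red.

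Among the regulators of entry, the A and B cyclins and Cdk1 differed most and Ccnf and Bora least. Ccna2, cyclin A2 (chromosome 3, 36564865 to 36571996 in mm10), had a signal of 4.92, 5.01, 4.10, 2.04 and 0.406 in knockout hearts 1 to 5, against 6.79, 4.503, 9.95, 7.49 and 10.3 in WT hearts 1 to 5. Knockouts 3 to 5 lay below every WT heart, and knockouts 1 and 2 were above the 2nd WT heart only. The means were 3.29 ± 2.01 in Lmna KO and 7.81 ± 2.39 in WT (SD, n = 5 each), with a log2 change of -1.34 ± 0.46 (SE, limma adjusted p = 0.150). Without the 5th knockout it was -0.89 (limma adjusted p = 0.0802). Ccnb1, the main mitotic cyclin, stood at 3.13, 1.44, 2.28, 0.696 and 0.203 in knockouts 1 to 5 and at 3.70, 2.37, 5.54, 4.23 and 4.55 in WT hearts 1 to 5. Only the 1st knockout reached the WT range, and the mean was 0.380 of that in WT (log2 change -1.34 ± 0.40, SE, limma adjusted p = 0.123). Ccnb2, the second B-type cyclin (chromosome 9, 70407689 to 70421554), read 2.19, 1.27, 1.30, 1.02 and 0.813 in the knockouts, against 2.08, 2.51, 4.27, 2.70 and 3.73 in WT. Again the 1st knockout alone overlapped the WT hearts. Ccnb2 had the lowest adjusted p of all members with all libraries (0.0943, limma, log2 change -0.98 ± 0.23, SE), and it fell without the 5th knockout (1.44 ± 0.514 in knockouts 1 to 4, SD, n = 4, with a log2 change of -0.87 at a limma adjusted p of 0.0447). Cdk1, the kinase itself (chromosome 10, 69336635 to 69352912), had 3.53, 3.34, 3.06, 1.77 and 0.660 in the knockouts and 4.37, 2.51, 6.08, 6.48 and 6.19 in WT. The 2nd WT heart, the lowest of its group, lay below knockouts 1 to 3, and the log2 change was -0.99 ± 0.36 (SE, limma adjusted p = 0.164).

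The other regulators of entry ranged from Aurka, close to the A and B cyclins, to Ccnf, with the smallest change of the group. Aurka, Aurora A, averaged 1.104 ± 0.492 in Lmna KO and 2.29 ± 0.655 in WT (SD, n = 5 each), a log2 change of -0.82 (limma adjusted p = 0.123). Plk1, Polo-like kinase 1, was below the minimum for the test but was one of 5 members whose knockout libraries (0.406 to 0.882) all lay below the WT libraries (0.929 to 1.75). Nek2, a kinase of centrosome separation, averaged 0.843 ± 0.445 in Lmna KO and 1.44 ± 0.323 in WT (SD, n = 5 each). Foxm1, the factor that activates many G2/M genes, was 1.56 ± 0.416 in Lmna KO and 2.42 ± 0.278 in WT (SD, n = 5 each), a log2 change of -0.52 ± 0.16 (SE, limma adjusted p = 0.135). Unlike Ccna2, Ccnb1 and Ccnb2, Foxm1 was not lowest in the 5th knockout (1.88, against 1.02 to 2.06 in knockouts 1 to 4). Bora, which helps Aurora A to activate Plk1, read 2.59, 1.67, 1.71, 2.46 and 2.13 in the knockouts and 2.15, 2.04, 2.47, 3.01 and 2.41 in WT, with 3 of 5 knockouts inside the WT range (log2 change -0.16 ± 0.15, SE, limma adjusted p = 0.544, with a change of -0.228 to -0.095 when 1 library was left out). Ccnf, cyclin F, a ubiquitin ligase subunit that binds no Cdk, was 1.11 ± 0.209 in Lmna KO and 1.25 ± 0.340 in WT (SD, n = 5 each, limma adjusted p = 0.756), with knockouts at 0.984, 1.38, 0.986, 1.29 and 0.914. The 2nd WT heart, at 0.650, lay below every knockout, and 4 of 5 knockouts lay below the other WT hearts (1.34 to 1.47). The log2 change of Ccnf was -0.11 with all libraries, -0.25 without the 2nd WT heart and -0.06 without the 5th knockout.

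All 4 spindle genes had lower means in the knockouts, and 2 of them separated the genotypes. Hmmr, a protein of the spindle poles (chromosome 11, 40701388 to 40733437), had 5.59, 3.69, 5.50, 5.04 and 4.52 in knockout hearts 1 to 5 and 6.58, 5.66, 9.35, 8.36 and 7.78 in WT hearts 1 to 5. Every knockout lay below every WT heart, though the 1st knockout and the 2nd WT heart nearly touched. Its log2 change was -0.58 ± 0.16 (SE, limma adjusted p = 0.110). Nusap1, which bundles spindle microtubules, likewise separated the groups, at 3.31, 3.11, 2.70, 2.52 and 0.965 in the knockouts and 3.56, 3.71, 5.48, 3.67 and 4.99 in WT. The gap was small, and the 5th knockout was much the lowest (log2 change -0.72 ± 0.25, SE, limma adjusted p = 0.157, and -0.48 at 0.0901 without the 5th knockout). Kif11, the motor that pushes the spindle poles apart, read 5.90, 4.90, 4.46, 3.05 and 2.13 in the knockouts and 5.91, 4.41, 8.48, 7.29 and 8.60 in WT. Knockouts 1 to 3 lay above the 2nd WT heart and below the others or, for the 1st, level with the 1st WT heart (log2 change -0.73 ± 0.25, SE, limma adjusted p = 0.157). Tpx2, which activates Aurora A on spindle microtubules, had 3.58, 2.36, 3.16, 1.82 and 0.863 in the knockouts and 3.76, 3.11, 7.55, 4.33 and 5.97 in WT. Its 3rd WT heart was the highest, and its log2 change was -0.97 ± 0.31 (SE, limma adjusted p = 0.136).

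Of 31 tested members 4 (12.9%) had no overlap between the genotypes, all of them lower in the knockouts, where 6.18% of all tested genes were lower without overlap and 4.07% higher. They were Hmmr, Nusap1, Bub1b and Top2a, and the untested Plk1 made the 5th. With knockouts 1 to 4 alone the count was the same 4 of 31, against 7.02% of all tested genes lower and 4.89% higher. In most other members the 1st knockout overlapped the WT hearts, since it lay below the lowest WT heart in 6 of 34 members. The counts for knockouts 2, 3, 4 and 5 were 20, 23, 29 and 29.

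**Figure D2:**
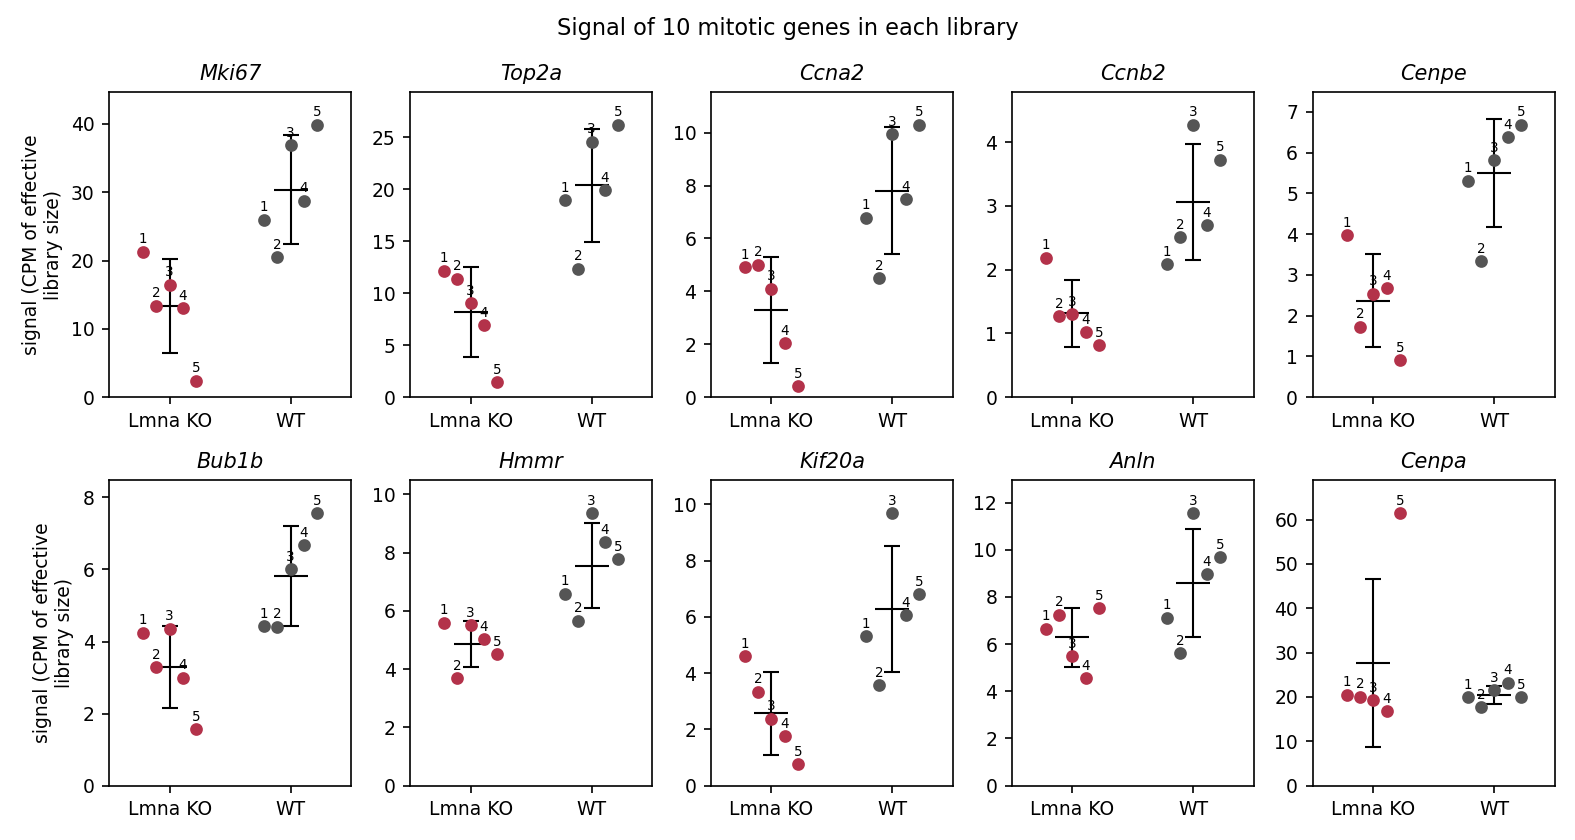
Signal (CPM of the effective library size, linear axes from 0) of 10 genes in the 5 Lmna KO libraries (red, left) and the 5 WT libraries (grey, right), with the library number beside each point and bars for mean ± SD. In Top2a, Bub1b and Hmmr all red points are below all grey ones, in Mki67 and Cenpe the 1st knockout overlaps the 2nd WT library, and Cenpa is level but for the 5th knockout at 61.5.

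The kinetochore group held the member with the highest signal, Cenpf, and the one with a higher knockout mean, Cenpa. Cenpe, the kinesin that moves chromosomes to the spindle equator (chromosome 3, 135212563 to 135273540), had a signal of 3.98, 1.73, 2.54, 2.68 and 0.914 in knockouts 1 to 5, against 5.31, 3.34, 5.81, 6.37 and 6.69 in WT hearts 1 to 5. The 1st knockout was above the 2nd WT heart, and every other knockout was below all WT hearts. Cenpe fell without the 5th knockout (2.73 ± 0.931 in knockouts 1 to 4, SD, n = 4, and 5.50 ± 1.32 in WT, SD, n = 5, log2 change -0.90 ± 0.22, SE, limma adjusted p = 0.0425, against 0.0972 with all libraries). Bub1b, which codes for the checkpoint protein BubR1, read 4.25, 3.28, 4.36, 2.9997 and 1.57 in the knockouts and 4.43, 4.41, 6.01, 6.68 and 7.56 in WT. The groups did not overlap, but the 3rd knockout nearly touched WT hearts 1 and 2 (log2 change -0.77 ± 0.24, SE, limma adjusted p = 0.134). Cenpf, a large protein of the outer kinetochore (chromosome 1, 189640614 to 189688086), had the highest signal of the members, 38.4, 27.1, 52.9, 46.9 and 9.75 in the knockouts and 66.6, 62.1, 51.3, 54.5 and 40.0 in WT. Its 5th WT heart was the lowest WT value and its 1st the highest, an order unlike that of the other members, and knockouts 3 and 4 lay within the WT range (log2 change -0.82 ± 0.38, SE, limma adjusted p = 0.241, and -0.43 without the 5th knockout). Cenpa, the histone H3 variant that marks centromeres (chromosome 5, 30666902 to 30674826), stood at 20.5, 20.1, 19.3, 16.9 and 61.5 in the knockouts and 20.02, 17.8, 21.6, 23.2 and 19.9 in WT. Knockouts 1 to 3 lay inside the WT range, the 4th just below it, and the 5th was 2.998 times the WT mean on 1210 reads. The log2 change of Cenpa was 0.24 ± 0.29 with all libraries and -0.09 ± 0.10 without the 5th knockout (SE, limma adjusted p = 0.647 and 0.619), so its sign rested on that library.

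The checkpoint kinases had low counts. Bub1 averaged 0.789 ± 0.541 in Lmna KO and 2.07 ± 0.596 in WT (SD, n = 5 each), a log2 change of -1.099 (limma adjusted p = 0.125), with 0 reads in the 5th knockout, where a count of 0 allows a signal of up to 0.152. Ttk, the kinase Mps1 that starts the checkpoint signal, averaged 0.427 ± 0.257 in Lmna KO, on 42 reads in all, and 1.21 ± 0.479 in WT, on 103 reads (SD, n = 5 each). Kif2c, a kinesin that takes microtubules apart at the centromere, averaged 0.670 ± 0.376 in Lmna KO and 1.48 ± 0.407 in WT (SD, n = 5 each, limma adjusted p = 0.138). The chromosomal passenger complex was represented by Aurkb (Aurora B, 0.699 ± 0.404 in Lmna KO and 1.15 ± 0.389 in WT), Cdca8 (borealin, 0.632 ± 0.395 and 1.68 ± 1.1997) and Birc5 (survivin, 1.76 ± 0.467 and 2.24 ± 0.672), each with SD and n = 5. Birc5 differed least of these, with a log2 change of -0.28 ± 0.21 (SE, limma adjusted p = 0.443) that was -0.131 without the 3rd knockout and -0.147 without the 3rd WT heart, and Cdca8 stood highest in the 3rd WT heart at 3.61. Cdc20, which activates the APC/C at anaphase, was 2.72 ± 0.684 in Lmna KO and 3.90 ± 1.03 in WT, and Ube2c, the ubiquitin-conjugating enzyme of the APC/C, was 1.16 ± 0.805 and 2.20 ± 0.653 (SD, n = 5 each, limma adjusted p = 0.245 and 0.234).

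The 2 genes of condensed chromosomes were, with Cenpf and Cenpa, the 4 members of highest mean signal, and had the largest median change of the role groups. Top2a, topoisomerase II alpha, which untangles sister chromatids (chromosome 11, 98992947 to 99024189), had 12.2, 11.4, 9.03, 6.91 and 1.42 in knockout hearts 1 to 5, against 18.9, 12.3, 24.6, 19.9 and 26.2 in WT hearts 1 to 5. The groups did not overlap, although the 1st knockout and the 2nd WT heart were nearly equal. Top2a had a log2 change of -1.48 ± 0.45 with all libraries (SE, limma adjusted p = 0.128) and fell without the 5th knockout (-0.996 ± 0.22, SE, limma adjusted p = 0.0284). Mki67, the Ki-67 protein that coats mitotic chromosomes and is widely used to mark cycling cells (chromosome 7, 135689788 to 135716379), read 21.3, 13.4, 16.5, 13.0 and 2.44 in the knockouts and 26.003, 20.5, 36.9, 28.8 and 39.9 in WT. The 1st knockout was above the 2nd WT heart, and every other knockout was below all WT hearts. Its log2 change was -1.38 ± 0.45 with all libraries (SE, limma adjusted p = 0.141), and Mki67 fell without the 5th knockout (-0.89 ± 0.20, SE, limma adjusted p = 0.0313). In the 5th knockout Top2a was at 0.0697 and Mki67 at 0.0802 of the WT mean.

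All 6 cytokinesis genes had lower means in the knockouts. Prc1, which crosslinks the microtubules of the central spindle, had 6.80, 3.86, 3.37, 2.57 and 1.78 in knockout hearts 1 to 5 and 6.52, 5.48, 9.75, 7.597 and 9.81 in WT hearts 1 to 5. The 1st knockout lay between WT hearts 1 and 4 and the rest below all WT hearts (log2 change -1.08 ± 0.28, SE, limma adjusted p = 0.103, and 0.0618 without the 5th knockout). Kif20a, a motor that carries the passenger complex to the midzone, read 4.605, 3.34, 2.39, 1.77 and 0.762 in the knockouts and 5.31, 3.57, 9.68, 6.07 and 6.79 in WT. As in Prc1, only the 1st knockout overlapped the WT hearts (log2 change -1.23 ± 0.35, SE, limma adjusted p = 0.119). Racgap1, a subunit of the centralspindlin complex, stood at 4.83, 3.11, 3.22, 1.61 and 1.22 in the knockouts and 4.64, 2.88, 5.88, 6.17 and 5.15 in WT. Knockouts 1 to 3 were above the 2nd WT heart (log2 change -0.80 ± 0.30, SE, limma adjusted p = 0.179). Kif23, the motor subunit of the same complex, averaged 1.92 ± 0.807 in Lmna KO and 3.42 ± 0.509 in WT, and Ect2, which switches on RhoA at the cleavage site, 1.70 ± 0.692 and 2.45 ± 0.653 (SD, n = 5 each, limma adjusted p = 0.136 and 0.295). Anln, anillin, the scaffold of the contractile ring (chromosome 9, 22331214 to 22389206), was 6.66, 7.26, 5.50, 4.55 and 7.52 in the knockouts and 7.12, 5.62, 11.6, 8.97 and 9.70 in WT. Its 5th knockout was the highest knockout value, the reverse of Prc1 and Kif20a (log2 change -0.40 ± 0.20, SE, limma adjusted p = 0.261).

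In the authors' deposited table of their own comparison 10 of the 34 genes were lower in the knockout at a false discovery rate (FDR) under 0.05, where 1.59% of all its genes were lower and 3.94% higher, and 0 members were higher. That table gave FDRs of 0.00733 for Ccnb2, 0.00940 for Cenpe, 0.0143 for Top2a, 0.0154 for Prc1, 0.0194 for Kif20a and 0.0260 for Mki67. The other calls in the authors' deposited table were Ttk (0.0264), Tpx2 (0.0407), Aurka (0.0464) and Ccnb1 (0.0473). They come from every role group, 3 from entry, 1 from spindle, 2 from kinetochore, 2 from chromosome and 2 from cytokinesis. The sources used here do not name the edgeR test behind these values.

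The members followed a shared order of libraries within each genotype. Among WT hearts the 2nd was the lowest in 27 of 34 members, where it was the lowest in 16.7% of all tested genes, and the 3rd or 5th was the highest in 28, against 42.8%. Among knockouts 1 to 4 the 1st was the highest in 26 of 34 members and the 4th the lowest in 25, against 21.6% and 24.3% of all tested genes. The 5th was the lowest of the 5 knockouts in 28 members, against 36.5%. The median of the members relative to the WT mean was -0.26, -0.55, -0.56, -0.94 and -1.62 in knockouts 1 to 5 (log2), against -0.14, -0.48, 0.30, 0.02 and 0.22 in WT hearts 1 to 5. The 1st knockout thus lay within the WT range and the 2nd WT heart near knockouts 2 and 3. Members share libraries, so these counts describe libraries and not separate observations.

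The spread between WT hearts was wide for these genes. The coefficient of variation (CV, SD over mean) of the 5 WT libraries had a median of 26.6% over the 31 tested members and 8.53% over all tested genes. These medians were not matched for abundance, and 21 of 34 members had a WT mean signal under 5. It was above the CV that counting error alone gives in 32 of 34 members and more than 2 times as large in 18. For Mki67, with 2672 reads over the WT libraries, the CV was 26.1% and the counting part 4.43%. For Ttk, with 103 reads, the 2 values were 39.7% and 22.8%. Abundant members such as Mki67 thus varied between hearts well beyond counting error, Cenpa less so (9.96% against 5.29%). Counting error was a larger part of the spread in the rare members.

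**Figure D3:**
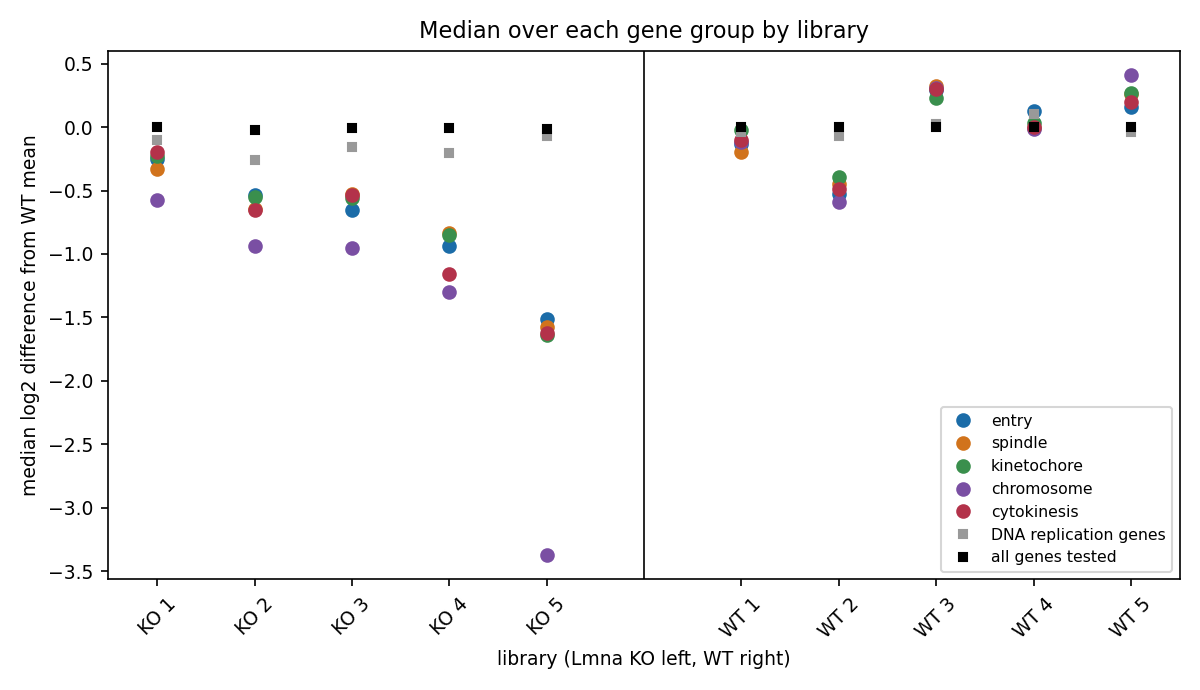
Median over the tested genes of each role group (circles), over DNA replication genes and over all genes tested (squares) in each Lmna KO library (left) and WT library (right), as log2(signal + 0.5) minus the WT mean. Entry, spindle, kinetochore and cytokinesis genes stand within a narrow band in most libraries, at -0.333 to -0.195 in the 1st knockout and at -1.639 to -1.509 in the 5th, but spread over -1.156 (cytokinesis) to -0.837 (spindle) in the 4th.

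In the 5th knockout the members ranged from nearly absent to the WT level or above. Of 34 members 17 were below 0.2 of the WT mean there, and 11 had 10 or fewer reads. Ube2c, Aurkb and Ttk had 1 read each, Nek2 and Cdca8 had 2, Kif2c had 3 and Ccnb1 had 4. At the other end 7 members were above 0.5 of the WT mean in the same library. Anln was at 0.875, Bora at 0.883, Foxm1 at 0.778, Birc5 at 0.747, Ccnf at 0.730 and Hmmr at 0.599, and Cenpa was the 7th. In knockouts 1 to 4 the same 7 stood between 0.612 (Foxm1) and 0.936 (Cenpa) of the WT mean. These 7 were picked after their values were seen.

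**Figure D4:**
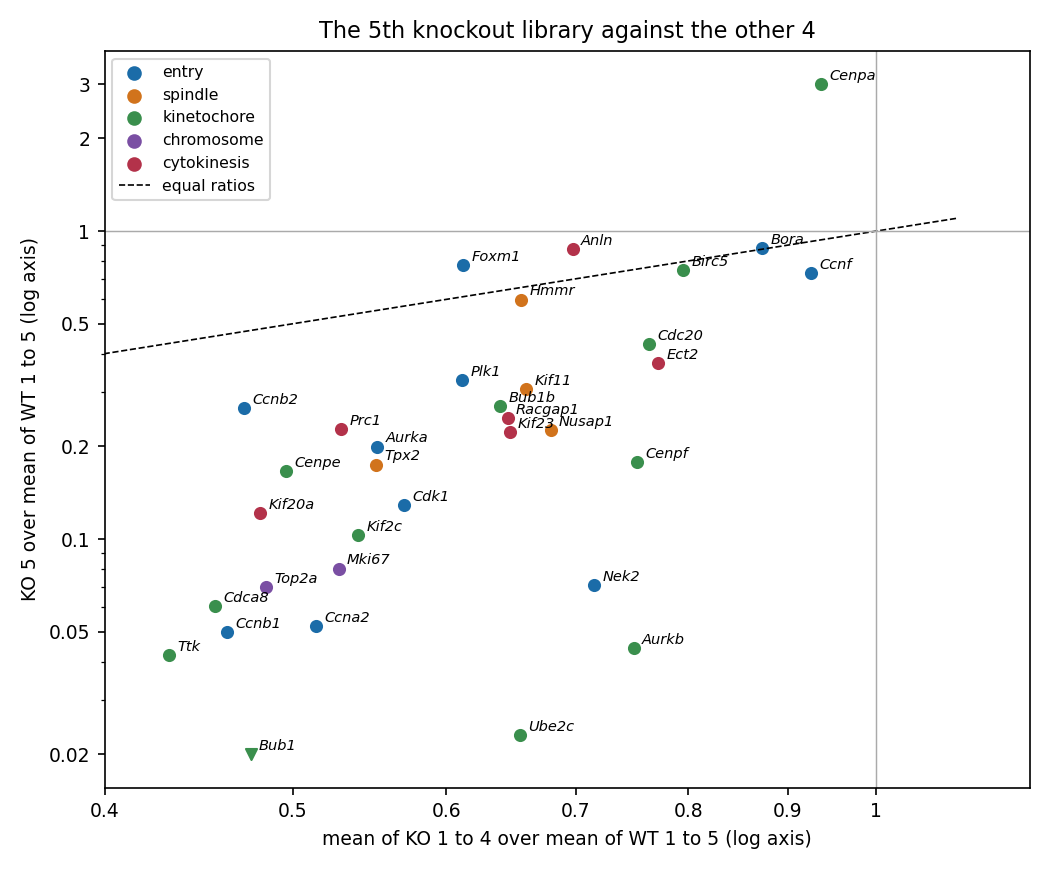
Ratio of the 5th Lmna KO library to the WT mean (vertical) against the ratio of the mean of Lmna KO libraries 1 to 4 to the WT mean (horizontal), 1 point per gene, both axes logarithmic, coloured by role. Most points lie far below the dashed line of equal ratios, Anln, Foxm1 and Cenpa lie above it, Bora lies on it, and Bub1, with 0 reads in the 5th knockout, is drawn as a triangle at the lower end of the axis.

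Per kilobase of exon (GENCODE M21, all exons of the gene joined), Cenpa had the highest mean level of the members, 16.8 signal units per kilobase in Lmna KO, the 5th knockout included, and 12.5 in WT. In order of the WT level, Cenpf followed with 3.15 in Lmna KO and 4.93 in WT, then Top2a with 1.57 and 3.91 and Mki67 with 1.32 and 3.02. In Lmna KO Cdc20 and Anln, at 1.52 and 1.37, lay above Mki67. Ccnf was the lowest in WT at 0.303. Exons of 8 members, Ccna2, Cdc20, Kif20a, Nek2, Nusap1, Plk1, Prc1 and Ube2c, overlap a gene on the other strand (Exosc9, Elovl1, Cdc23, Gm38037, Oip5, Gm44985, Rccd1 and Tnnc2, in that order). The sources used here do not say whether counting used strand, and without it the reads of each pair cannot be told apart.

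Other genes of the same machinery, listed by name, had a median closer to 0. The mean summed signal in WT was 3378 for these 137 genes and 242 for the 34 members, so they were on average more abundant. Of 137 further mitotic genes measured 119 were tested, with a median log2 change of -0.16 (88 negative). With all libraries limma called 0 of the 119 (all genes, 0.0856% lower and 0.117% higher). At an unadjusted limma p under 0.05, 37 were lower and 2 higher, against 11.4% and 9.42% of all genes. The edgeR test called 0 (all genes, 0.0545% lower and 0.101% higher). DESeq2 called 12 lower and 0 higher, where it called 2.57% of all genes lower and 3.48% higher. Without the 5th knockout 5 of the 119 fell and 0 rose, a share near that of all genes (2.71% fell and 2.27% rose). Among them were Nuf2 of the outer kinetochore (1.11 ± 0.253 in knockouts 1 to 4, SD, n = 4, and 2.73 ± 0.991 in WT, SD, n = 5, log2 change -0.96), the chromosome motor Kif4 (-0.82), the condensin subunit Ncapd2 (-0.51) and Ensa, a regulator of the phosphatase that opposes Cdk1 (-0.25). The limma adjusted p-values of these 4 in that fit ran from 0.0194 for Ncapd2 to 0.0409 for Ensa. By list the medians with all libraries were -0.40 for spindle genes (31 tested), -0.23 for kinetochore genes (25), -0.18 for condensin and cohesin (19), -0.06 for the APC/C and checkpoint (29) and -0.02 for further kinases and phosphatases (15). Of the 137 genes, 14 were lower and 0 higher at an FDR under 0.05 in the authors' deposited table, against 1.59% and 3.94% of all its genes. Anapc5, the most abundant of the APC/C list, had a log2 change of -0.08 (limma adjusted p = 0.647), and of -0.15 without the 5th knockout (limma adjusted p = 0.237).

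Genes that act before mitosis, and those of the CHR and CCAAT factors, were also followed as lists. DNA replication genes had a median log2 change of -0.16 over 34 tested, like that of the further mitotic genes. In the 5th knockout the replication median was -0.07, beside -1.62 for the members and -0.19 for the further mitotic genes. Differences between the lists were not tested. Mcm5, of the replicative helicase, fell without the 5th knockout (log2 change -0.42, limma adjusted p = 0.0422). Genes of the MuvB and DREAM complexes, NF-Y and their E2F partners had a median of 0.08 over 14 tested. Of these, 0 were called by limma in either fit and 0 by edgeR or DESeq2. At an unadjusted p under 0.05 with all libraries 0 were lower by any of these tests. By limma 0 were higher, by edgeR 1 and by DESeq2 2. Over all genes limma had 1468 lower and 1211 higher at that level, edgeR 1242 and 1473, and DESeq2 1378 and 1506. The most abundant of the MuvB and DREAM list, Tfdp2, had a log2 change of 0.63 that did not pass (limma adjusted p = 0.335), and of 0.23 without the 5th knockout (limma adjusted p = 0.418). Cyclins and inhibitors of G1 had a median of 0.05 over 17 tested. Cdkn1a, the inhibitor p21, rose without the 5th knockout by 1.46 on the log2 scale (limma adjusted p = 0.0175, against 0.0747 with all libraries).

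Cell type markers also differed between libraries. All 12 cardiomyocyte markers had negative log2 changes with all libraries (median -0.55) and without the 5th knockout (median -0.357). Their median relative to the WT mean was -0.84 and -0.88 in knockouts 2 and 5, and -0.11, -0.12 and -0.14 in knockouts 1, 3 and 4. In the 5th knockout these markers did not go together. Tnnt2 (8581, against 3936 to 4595 in WT) and Actn2 (2757, against 1587 to 1803) were above every WT heart there. Pln lay within the WT range, and the rest, such as Actc1 (792, against 8726 to 10947), lay below it. The summed signal of 10 fibroblast markers was 2029 in the 5th knockout, 4268 in the 4th, and 6280.4, 5981 and 6035 in knockouts 1 to 3, against 4907 to 6124 in WT. In WT most of this sum is from collagen genes, and its members did not go together. Col3a1, a fibrillar collagen, was 2018 and 127 in knockouts 4 and 5, against 2552 to 3307 in WT. Pdgfra, a growth factor receptor, was 168 and 159 in knockouts 4 and 5, against 148 to 163 in WT, and Dcn, a matrix proteoglycan, was 839 and 1378, against 708 to 755 in WT. All fibroblast markers but Pdgfra and Dcn lay below every WT heart in the 5th knockout, and not only the collagens. Lum was 142 and 32.9 in knockouts 4 and 5, against 195 to 242 in WT, and Dpt was 84.5 and 27.3, against 127 to 138. The fibroblast markers named here were chosen after their values were seen. For 10 endothelial markers the sums were 1177 to 1588 in Lmna KO and 1629 to 1762 in WT, with the 2nd knockout the lowest. Kdr, the VEGF receptor, fell without the 5th knockout (log2 change -0.55, limma adjusted p = 0.021). The 11 macrophage markers summed to 229 to 493 in Lmna KO and 330.3 to 377 in WT, and the 8 mural markers to 1514 to 2357 in Lmna KO and 2095 to 2278 in WT. The 9 epicardial markers summed to 38.0 to 85.3 in Lmna KO and 35.2 to 63.8 in WT, and the 5 erythroid markers measured to 50.4 to 208 in Lmna KO and 158 to 206 in WT. The 9 lymphocyte markers summed to 4.67 to 9.35 in Lmna KO and 4.87 to 6.74 in WT, and Cd3d and Ms4a1 were at 0 in the 5th knockout. The part of these differences in the levels of the mitotic genes was not tested.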

How the data were processed

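Total RNA of 10 hearts was sequenced, 5 Lmna KO and 5 WT. Groups come from the genotype label. Nothing in the labels pairs a knockout with a WT animal. TopHat2, Cufflinks, edgeR and build mm10 are named in the submitters' processing notes, while the sources used here give no versions, settings, read counter or strand. The authors deposited 1 signal value per gene and library in 14647 rows (by the sheet's name, CPM of the effective library size), and separately the result of their own test, which holds mean levels, log2 ratios, p-values and FDRs. Dividing each signal by the worth of 1 read (0.0447 to 0.0672) gave whole reads, within 0.01 read, for 100% of values. A total of 21 rows named by dates (0.13361% to 0.20371% of reads) were left out, leaving 14626 genes. Counts cover counting error only, and the floor is 3 reads.

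The main test was limma 3.58.1 (R 4.3.3) on log2(signal + 0.5) with 1 factor, genotype, and an intensity trend, over the 12855 genes whose mean signal reached 1. Log2 changes are on the log2(signal + 0.5) scale and so are too small for genes of low signal. The alternatives changed the pseudocount (0.1 or 1), the filter (none, or a minimum of 5), the scaling (median of ratios or upper quartile) or the test: libraries left out, a replicate block, library weights, edgeR 4.0.16 (quasi-likelihood) and DESeq2 1.42.0, both on recovered reads. The functions were tested on simulated reads. Values of every library are given for the 4 most abundant members of each role group and for members called with or without the 5th knockout library, and of other lists the called genes or else the most abundant are named, except that some genes are not reported here. The members, lists and alternatives were chosen with earlier results of these data known.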

Additional observations from a re-analysis of the deposited data

Results flagged for a closer look

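In 68 groups of 5 values (34 genes in 2 genotypes) the gap of the highest or lowest library to its neighbour, over the range, exceeded Dixon's critical value of 0.71 in 2. Chance flags about 1 in 20 groups. Cenpa had a signal of 61.5 in the 5th Lmna KO library, far above the other knockouts at 16.9 to 20.5, with a gap of 0.918 of the range. Ccnf had a signal of 0.65 in the 2nd WT library, below the other WT libraries at 1.34 to 1.47, with a gap of 0.847 of the range, on counts small enough that the counting CV of Ccnf in WT was 22.02%.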

How the results depend on the processing

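Of 660 values of single members under the alternatives, 624 kept their direction and their side of the threshold, 32 passed it newly and 4 changed sign. All 4 were of Cenpa, whose log2 change of 0.24 became -0.091 without the 5th knockout library, -0.114 without the 2nd and 5th together, -0.051 with library weights and -0.094 by edgeR without the 5th, with a range of -0.091 to 0.368 when 1 library was left out. The median log2 change of the members was -0.933 to -0.553 over all 22 alternatives. The number of members called lower, 0 with all libraries, was 6 without the 2nd and 5th knockouts together, 12 with library weights, 6 by DESeq2 and 4 by edgeR without the 5th knockout, and 0 to 4 when 1 library was left out (4 without the 5th knockout). It was 0 under both pseudocounts, both filters, both scalings, the replicate block and edgeR with all libraries. Members called higher were 0 throughout. Over all genes 26 were called, against 14 with a minimum signal of 5, 1370 without the 2nd and 5th knockouts (825 lower, 545 higher), 2280 with library weights (1299 lower, 981 higher), 773 by DESeq2 (328 lower, 445 higher), 660 by edgeR without the 5th and 6 to 640 when 1 library was left out. The 640 came without the 5th knockout, and the counts were 14 without the 2nd and 11 without the 3rd knockout, and 6, 7, 6, 9 and 9 without WT hearts 1 to 5. The main counts were 11 lower and 15 higher. The cause of these shifts was not tested. With the replicate block the count over all genes was 35 (6 lower, 29 higher). Deviations of same-numbered libraries correlated at -0.134 to 0.182, and only the 3rd knockout correlated best with its own number. These values gave no clear sign that the numbers pair the hearts, but correlations this weak cannot exclude it. Depth limits the rarest members, such as Ttk and Aurkb, with 103 and 101 reads over the WT libraries.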

Other observations

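Cenpa and Cenpf together made up 32.2%, 33.2%, 43.5%, 47.0% and 64.3% of the summed signal of the 34 genes in Lmna KO libraries 1 to 5, against 37.3%, 42.1%, 25.9%, 31.8% and 22.9% in WT libraries 1 to 5. The share has the other members in its denominator and so moves with them. Without them the summed signal of the other 32 genes was 84.9 ± 31.4 in Lmna KO and 166 ± 40.7 in WT (SD, n = 5 each), with knockouts between 39.5 and 124 and WT hearts between 110.0 and 208, so the 1st knockout then overlapped the 2nd WT heart. In Lmna KO libraries 1 to 4 it was 96.2 ± 21.5 (SD, n = 4). The pair was singled out after its values were seen, and no test was made. Among the lymphocyte markers Cd3e had a signal of 8.13 in the 5th knockout, against at most 0.691 in knockouts 1 to 4, in a library where Cd3d was at 0.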
